A study of Homo sapiens with 18 samples.

Results

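The EGF family of growth factors was followed through the RNA-seq data of an MDA-MB-231 series, for the 7 genes AREG, EREG, HBEGF, TGFA, BTC, EPGN and NRG1. These genes were taken by name from the deposited count table, through their Ensembl identifiers and by no threshold on a measured value, although earlier results of these data were known when the list was drawn up. All 7 were found among the 57448 genes of the table. AREG, EREG, HBEGF, TGFA and NRG1 passed the filter on low counts (a minimum of 1 CPM, counts scaled to the library's total, in 3 or more of the 18 libraries) and were among the 15587 genes tested, whereas BTC and EPGN stayed under 1 CPM in every library.

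The EGF family ligands are made as membrane-anchored precursors, and ADAM proteases on the cell surface release the soluble growth factor. The soluble or anchored ligand brings ErbB receptors together in pairs, and the paired receptors signal through RAS and MAPK and through PI3K and AKT. TGFA and AREG bind EGFR, HBEGF, EREG and BTC bind EGFR and ERBB4, EPGN is a broad, low-affinity ligand, and the neuregulin NRG1 binds ERBB3 and ERBB4. In breast carcinoma cells with a mesenchymal character, ligands that the cells make themselves can keep EGFR active.

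MDA-MB-231 is a mesenchymal triple negative breast cancer line. The parental cells (WT) were compared with KO1 and KO2, in which the corepressor subunit GPS2 had been targeted in exons 2 and 6 with a different set of sgRNAs for each line, delivered with Cas9 from LentiCRISPRv2. Both lines were kept as mixed pools after puromycin, so cells with different edits contribute to each library. The myrAKT cells were parental cells that carried a retroviral, membrane-anchored AKT (pBABEpuro-myrFLAG-AKT) beside their own AKT genes, and whether they were a pool or a clone was not given in the sources used here. KO1+MK and KO2+MK were the KO lines after 10 µM MK2206, an allosteric AKT inhibitor, for 4 h. WT and myrAKT cells with MK2206 were not analysed here, and no vehicle or empty-vector group was used. Each of the 6 groups had 3 replicates. Nothing states that these came from separate cultures, so the p-values measure the spread between these libraries, which may be technical. In bulk RNA, fewer cells of a kind and less RNA per cell cannot be told apart.

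The libraries held 23419198 to 39319910 counted reads. The treated libraries were shallower, with 23419198 to 29939536 reads against 35627965 to 39319910 for the untreated KO libraries, and the part of this difference in the MK2206 results was not tested. All 5 markers of the line that were looked for as present (VIM, CD44, EGFR, AXL and CAV1) summed to 3628 to 4703 CPM. Of the markers looked for as low or absent, ESR1, PGR and CDH1 lay under 1.5 CPM in every library, with PGR and CDH1 at or near 0, whereas EPCAM was at 3.16 to 12.3 CPM and ERBB3 at 2.92 to 10.5 CPM. The 3 leukocyte markers summed to 0.693 to 1.03 CPM in myrAKT and to at most 0.264 CPM elsewhere. LYZ was at 0.752 CPM in myrAKT, whereas PTPRC had at most 5 counts and CD3E at most 1 count in any library. The fibroblast markers DCN and LUM had at most 1 count in a library beside COL1A1 at 10.8 to 17.15 CPM. The 3 endothelial markers summed to 21.1 to 23.6 CPM in myrAKT, 6.98 to 8.18 CPM in WT, 5.08 to 6.07 CPM in KO2, 2.38 to 2.90 CPM in KO1, and 2.23 to 4.44 CPM in the treated groups. PECAM1 was at 21.1 CPM in myrAKT and 3.58 CPM in WT, while CDH5 fell in myrAKT. CDH5 and VWF fell in KO cells (log2 fold changes −1.98 and −1.30). The part of these markers in the ligand results was not tested. GPS2 RNA was at 4.57 ± 0.278 CPM in WT, 4.50 ± 0.0364 in KO1 and 6.04 ± 0.123 in KO2 (SD, n = 3 each). Every KO2 library was above every WT library (log2 fold change 0.40, adjusted p = 0.00221), and neither line passed the test. Counts per gene thus give no check of the KO labels, and the study's protein and genomic PCR checks of the lines were not analysed here. AKT1 rose 1.70-fold in myrAKT.

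HBEGF supplied most of the ligand RNA when levels were set per kb of exon. On the scale of CPM per kb of exon, which allows levels of different genes to be compared, HBEGF in WT was at 53.7, AREG at 13.7, TGFA at 12.7, EREG at 8.68 and NRG1 at 2.52. EPGN and BTC stayed at 0.0899 and 0.0807. NRG1 has 21.372 kb of annotated exon over all its transcripts, more than any other ligand here, which lowers its value on this scale. The 7 ligands summed to 91.4 ± 3.98 CPM per kb (SD, n = 3) in WT, 78.7 ± 1.52 in KO1, 56.0 ± 1.82 in KO2, 62.1 ± 4.16 in myrAKT, 78.5 ± 0.816 in KO1+MK and 69.4 ± 2.43 in KO2+MK (SD, n = 3 each). The WT libraries (86.9 to 94.2) lay above all others, and the KO2 libraries (54.1 to 57.8) lay below all others. These sums are a description and were not tested.

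The make-up of the ligand pool also differed between groups. HBEGF made up 57.2% to 59.95% of the summed per-kb level in WT, 50.8% to 52.5% in KO1 and 68.5% to 71.4% in KO2+MK. AREG made up 20.3% to 21.3% in KO1, 11.8% to 12.3% in KO2 and 6.05% to 7.92% in KO2+MK. EREG was at 14.8% to 15.3% in KO2, where AREG and TGFA were lower, and at 9.29% to 9.63% in WT. Shares within a sum are tied to each other, so the tests were made on each gene.

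**Figure D1:**
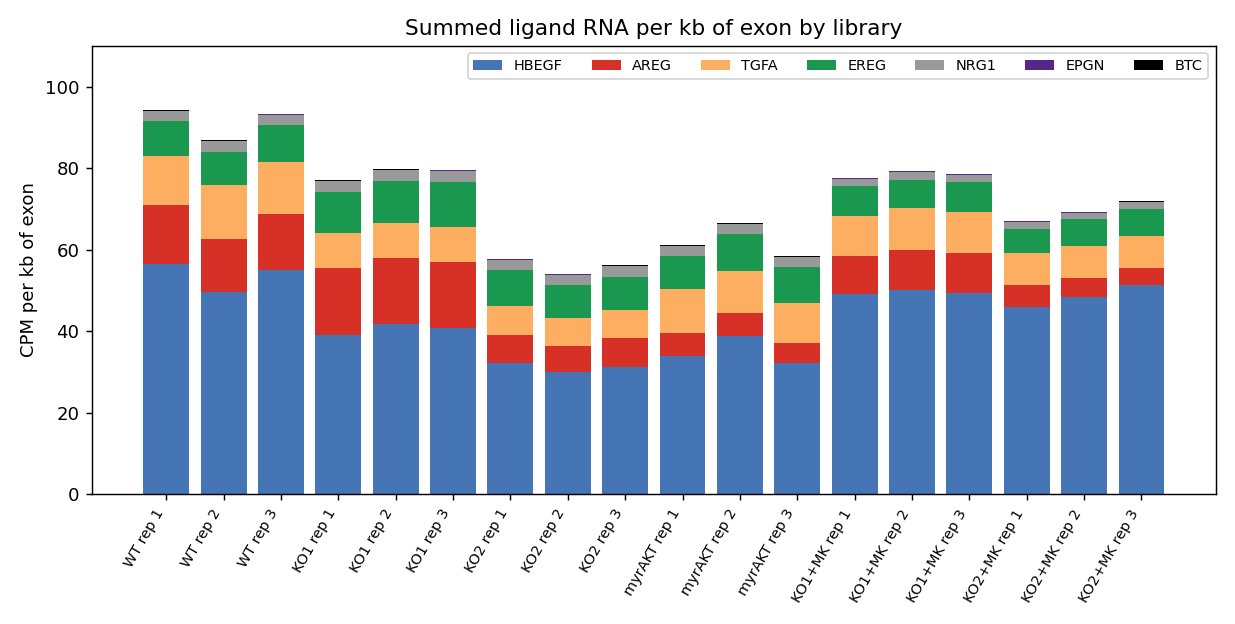
Stacked bars show the level of each EGF family ligand in CPM per kb of exon (y axis) in each of the 18 libraries (x axis). HBEGF is the largest part of every bar, and the sums run from 54.1 in KO2 to 94.2 in WT.

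Of the ligand genes, 4 sit together on chromosome 4 of hg38. EPGN (plus strand, 74308470 to 74316789), EREG (plus strand, 74365145 to 74388749), AREG (plus strand, 74445136 to 74455005) and BTC (minus strand, 74744759 to 74794523) lie within 486.1 kb. HBEGF lies on the minus strand of chromosome 5 from 140332843 to 140346603 and TGFA on the minus strand of chromosome 2 from 70447284 to 70554193. All are protein-coding. No gene of the count table shares exon bases with TGFA or NRG1, within whose introns other annotated genes lie.

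The 250 bases before the start of 4 ligands are shown: AREG and EREG, neighbours on chromosome 4 of which AREG fell in KO2 and myrAKT and EREG did not pass there, and HBEGF and TGFA, which both fell in KO1, KO2 and myrAKT. They come from RefSeq (GRCh38.p14) and are read 5′ to 3′ on the gene's strand: chr4:74444886-74445135 (plus) for AREG, chr4:74364895-74365144 (plus) for EREG, chr5:140346604-140346853 (minus) for HBEGF and chr2:70553827-70554076 (minus) for TGFA. RefSeq lists a second start for TGFA, whose window holds none of the motifs and is not shown. The TGFA window shown lies inside the gene span given above, which comes from another annotation with a start further upstream. Capitals mark matches to 6 searched motifs on either strand.
AREG: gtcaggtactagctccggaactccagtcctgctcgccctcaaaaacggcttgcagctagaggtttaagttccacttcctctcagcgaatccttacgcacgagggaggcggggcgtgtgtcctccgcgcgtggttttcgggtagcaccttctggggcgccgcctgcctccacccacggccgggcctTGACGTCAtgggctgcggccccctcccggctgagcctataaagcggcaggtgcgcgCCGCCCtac
EREG: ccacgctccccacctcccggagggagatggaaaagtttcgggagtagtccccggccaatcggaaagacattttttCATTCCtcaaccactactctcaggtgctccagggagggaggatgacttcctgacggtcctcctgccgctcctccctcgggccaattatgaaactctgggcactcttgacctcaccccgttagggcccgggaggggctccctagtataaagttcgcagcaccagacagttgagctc
HBEGF: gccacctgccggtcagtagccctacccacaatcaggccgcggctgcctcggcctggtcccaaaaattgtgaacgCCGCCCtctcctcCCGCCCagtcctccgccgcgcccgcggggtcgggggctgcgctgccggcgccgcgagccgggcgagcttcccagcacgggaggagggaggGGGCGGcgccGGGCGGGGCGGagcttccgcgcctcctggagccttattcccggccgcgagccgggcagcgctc
TGFA: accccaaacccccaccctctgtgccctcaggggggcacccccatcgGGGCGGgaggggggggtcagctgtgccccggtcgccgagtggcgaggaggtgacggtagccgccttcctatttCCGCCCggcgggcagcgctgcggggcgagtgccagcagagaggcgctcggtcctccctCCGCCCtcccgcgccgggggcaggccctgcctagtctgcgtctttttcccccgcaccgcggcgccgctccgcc
In AREG the capitals are a cAMP response element (TGACGTCA), 65 bases before the start, and the SP1 motif GGGCGG on the other strand. The EREG capitals are the TEAD motif GGAATG on the other strand, and the HBEGF and TGFA capitals are SP1 motifs, 5 and 3 of them, some of which adjoin or overlap in HBEGF. Of 35116 promoter windows of 300 bases, 1.85% held TGACGTCA, 14.0% GGAATG and 45.0% GGGCGG. The AP-1 motif TGANTCA (7.71% of windows), the FOXO motif TGTTTAC (3.42%) and the E-box CACGTG (7.26%) did not match in these 4 sequences. A match describes letters in the window and shows no binding.

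To see how the ligands differ in the KO lines, the 6 untreated KO libraries were compared with WT. These libraries come from 2 edited pools, and the pooled test had no term for the line. Its p-values thus do not measure the spread between independently edited pools. TGFA and HBEGF fell in both KO lines, AREG fell in KO2, and EREG rose slightly in KO1. NRG1 did not pass the test in either line. A gene is said to have risen, fallen or changed at an adjusted p of at most 0.001 (edgeR quasi-likelihood test, Benjamini-Hochberg over all 15587 genes), and to be called when it also differed by at least 1.5-fold. In the pooled comparison, 2 of the 5 tested ligands fell and both were called. Of all genes, 15.5% rose, 16.6% fell and 12.7% were called, and the median log2 fold change was −0.27 for the 5 ligands and −0.00291 for all genes. The lines differed in this median, with 0.0636 in KO1 and −0.794 in KO2.

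**Figure D2:**
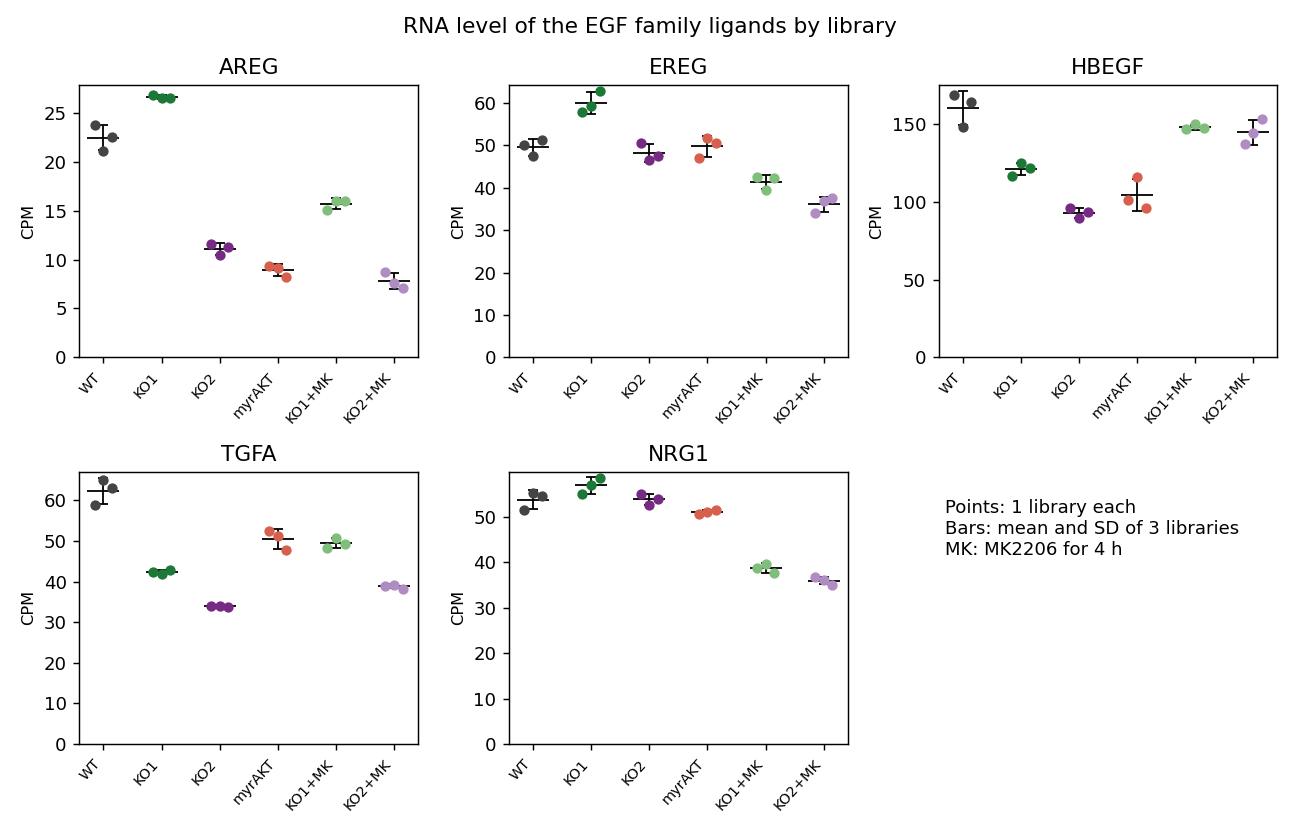
Each panel shows the CPM of a ligand (y axis, from 0) in the 3 libraries of each group (x axis), with points for libraries and bars for the mean and SD. TGFA and HBEGF are highest in WT, AREG is split between KO1 and KO2, and NRG1 and EREG are lowest in the 2 treated groups.

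TGFA, a high-affinity EGFR ligand, was measured at 58.8, 65.0 and 63.1 CPM in WT. The KO1 libraries held 42.3, 42.0 and 42.9 CPM and the KO2 libraries 34.1, 34.0 and 33.8 CPM. The 3 groups did not overlap, and the replicates within each KO line lay within 1 CPM of each other. Pooled over the lines, TGFA fell 1.65-fold (log2 fold change −0.73 with a standard error of 0.088, adjusted p = 2.93e-05). Without WT replicate 1, the KO1 value reached 1.5-fold (log2 fold change −0.61). As reported, the fall was 1.49-fold in KO1 (adjusted p = 3.40e-08) and 1.85-fold in KO2 (adjusted p = 3.65e-09).

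HBEGF, a heparin-binding ligand, had 168.9, 148.5 and 164.4 CPM in WT. In KO1 it had 116.9, 125.0 and 121.9 CPM, and in KO2 95.9, 89.7 and 93.6 CPM. Every KO library was below every WT library, and KO2 was below KO1. The pooled fall was 1.52-fold (log2 fold change −0.60 with a standard error of 0.105, adjusted p = 4.37e-04). Leaving out WT replicate 1, 2 or 3 raised the adjusted p to 0.0034, 0.00125 or 0.00326, past the threshold of 0.001. Leaving out KO2 replicate 1, 2 or 3 kept HBEGF past that threshold but brought the fold under 1.5, with log2 fold changes of −0.57, −0.54 and −0.57. Within the lines, HBEGF fell 1.34-fold in KO1 (adjusted p = 9.00e-07) and 1.73-fold in KO2 (adjusted p = 6.06e-09).

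AREG, a low-affinity EGFR ligand with a role in the mammary gland, was at 23.7, 21.15 and 22.6 CPM in WT. It was at 26.9, 26.6 and 26.5 CPM in KO1 and at 11.6, 10.4 and 11.3 CPM in KO2. All KO1 libraries were above WT and all KO2 libraries were below it. KO2 gave a fall of 2.03-fold (log2 fold change −1.02 with a standard error of 0.062, adjusted p = 1.33e-08). For KO1 the log2 fold change was 0.23 (95% interval 0.11 to 0.34, adjusted p = 0.00151), which missed the threshold and passed it without WT replicate 1 (adjusted p = 1.92e-04), without the filter (7.37e-05) and with DESeq2's size factors (9.73e-04). The pooled log2 fold change was −0.27 with an interval from −0.96 to 0.42 (adjusted p = 0.483), and a fit of all 18 libraries, in which the lines are separate groups, gave −0.39 (adjusted p = 1.79e-06).

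EREG, the neighbour of AREG on chromosome 4 and a ligand of EGFR and ERBB4, was at 50.0, 47.4 and 51.3 CPM in WT. It was at 57.8, 59.4 and 62.85 CPM in KO1 and at 50.5, 46.5 and 47.45 CPM in KO2. KO1 lay above WT in every library, whereas KO2 overlapped with WT. EREG rose 1.19-fold in KO1 (log2 fold change 0.26, adjusted p = 1.46e-04), which did not pass without KO1 replicate 3 (adjusted p = 0.00147). In KO2 the log2 fold change was −0.05 (95% interval −0.14 to 0.05), and pooled it was 0.11 (−0.10 to 0.31).

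NRG1, the ligand of ERBB3 and ERBB4, lies on the plus strand of chromosome 8 from 31639222 to 32855666. It had 51.5, 55.4 and 54.6 CPM in WT, 55.1, 57.2 and 58.7 CPM in KO1, and 55.0, 52.6 and 54.1 CPM in KO2. The 3 groups overlapped with each other except KO1 with KO2. The pooled log2 fold change was 0.02 (95% interval −0.07 to 0.12), with 0.06 (−0.03 to 0.15) in KO1 and −0.01 (−0.09 to 0.08) in KO2.

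In counts, KO1 against WT gave 1 rise and 2 falls among the 5 tested ligands, where 20.5% of all genes rose and 21.3% fell. No ligand was called by edgeR or by DESeq2 in KO1, against 13.9% of all genes. An unadjusted p under 0.05 in KO1 was given to 4 of the 5 ligands and to 10555 of the 15587 genes tested. KO2 against WT gave 3 falls, all called, where 20.8% of all genes rose, 22.2% fell and 16.7% were called. The WT libraries are shared between these comparisons.

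The lines were then compared with each other, since each was made with its own sgRNA set. AREG was 2.38-fold higher in KO1 than in KO2 (log2 fold change 1.25 with a standard error of 0.055, adjusted p = 5.74e-11), with no overlap between the libraries. HBEGF was 1.29-fold higher in KO1 (adjusted p = 3.07e-07), EREG 1.24-fold (adjusted p = 2.86e-05) and TGFA 1.24-fold (adjusted p = 1.27e-05). NRG1 differed by 0.07 on the log2 scale (95% interval −0.01 to 0.15, adjusted p = 0.172). In all, 4 of the 5 ligands were higher in KO1, and AREG was called. Among all genes 7.06% were higher in KO1, 5.54% were lower and 2.62% were called.

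**Figure D3:**
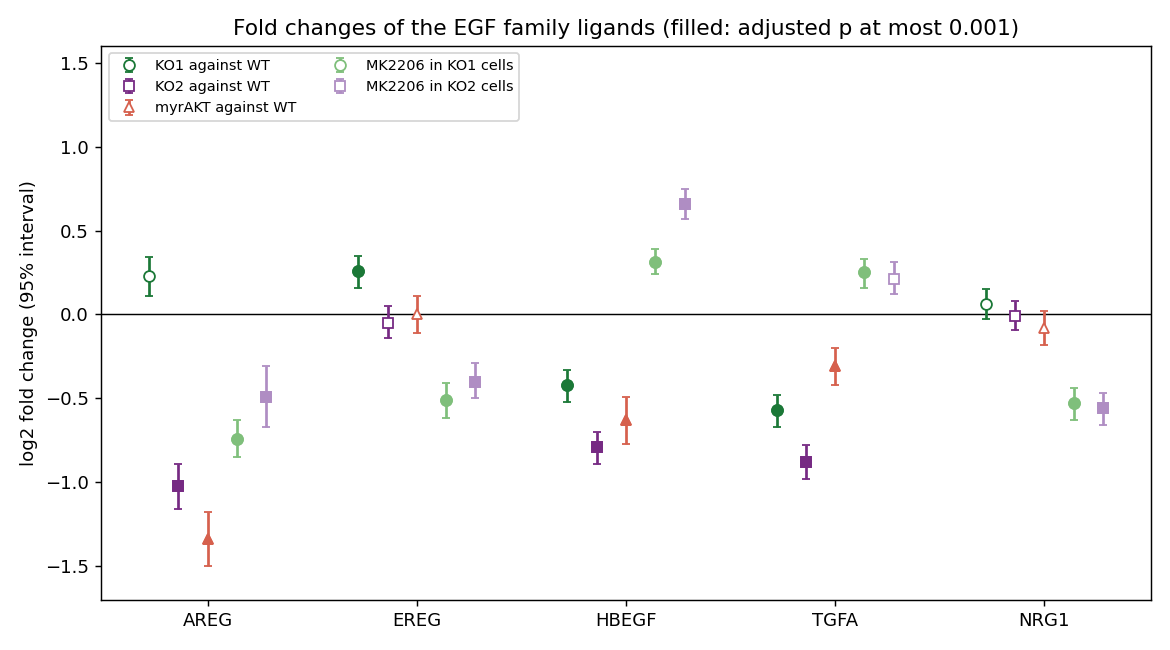
The log2 fold change (y axis) of the 5 tested ligands (x axis) is shown for KO1, KO2 and myrAKT against WT and for MK2206 in each KO line, with 95% intervals and filled symbols for an adjusted p of at most 0.001. AREG spans the widest range, from −1.34 in myrAKT to 0.23 in KO1, and the NRG1 intervals include 0 except after MK2206.

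The myrAKT cells were compared with WT to see which ligands differ when AKT is held at the membrane. AREG, HBEGF and TGFA were lower, and EREG and NRG1 were near WT. Thus 3 of the 5 ligands fell and 2 were called, where 12.7% of all genes rose, 17.3% fell and 13.8% were called. The median log2 fold change was −0.309 for the 5 ligands and 0.0163 for all genes.

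AREG was at 9.395, 9.14 and 8.27 CPM in myrAKT, under every WT and KO2 library. It fell 2.53-fold (log2 fold change −1.34 with a standard error of 0.073, adjusted p = 2.30e-09), the largest fall of a tested ligand in any comparison with WT. HBEGF was at 101.2, 116.2 and 95.9 CPM and fell 1.55-fold (log2 fold change −0.63 with a standard error of 0.065, adjusted p = 1.52e-06). Its highest myrAKT library was replicate 2, and all 3 lay below WT. Without myrAKT replicate 3, HBEGF still fell but its log2 fold change was −0.58, just under 1.5-fold.

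TGFA was at 52.6, 51.3 and 47.9 CPM in myrAKT, between WT and the KO lines. It fell 1.24-fold (log2 fold change −0.31 with a standard error of 0.052, adjusted p = 1.58e-04). This was lost without WT replicate 2 (adjusted p = 0.0013) or WT replicate 3 (adjusted p = 0.00159). EREG was at 47.1, 51.7 and 50.5 CPM, overlapping with WT, with a log2 fold change of −0.00042 (95% interval −0.11 to 0.11). NRG1 was at 50.8, 51.0 and 51.6 CPM, with a log2 fold change of −0.08 (−0.18 to 0.02).

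The KO lines after MK2206 were compared with the same lines untreated. Since no treated WT group and no vehicle group was used, effects of handling or of the drug in any cell cannot be told apart. In both lines NRG1, AREG and EREG were lower after 4 h and HBEGF was higher. Pooled over the lines, 1 of the 5 tested ligands rose and 2 fell, and none was called by edgeR or DESeq2. Of all genes 12.8% rose, 8.75% fell and 6.53% were called. An unadjusted p under 0.05 was given to all 5 ligands and to 8317 of the 15587 genes tested, and AREG and TGFA did not pass after adjustment. The pooled test had no term for the line. With the line as a covariate, AREG fell and TGFA rose, as given below.

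NRG1 was at 38.8, 39.8 and 37.6 CPM in KO1+MK and at 36.7, 36.2 and 35.1 CPM in KO2+MK. All 6 treated libraries were below all 6 untreated KO libraries, which ranged from 52.6 to 58.7 CPM. NRG1 fell 1.46-fold (log2 fold change −0.55 with a standard error of 0.038, adjusted p = 9.46e-08). The fall was 1.45-fold in KO1 and 1.48-fold in KO2.

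EREG was at 42.5, 39.5 and 42.2 CPM in KO1+MK and at 34.15, 36.8 and 37.5 CPM in KO2+MK. Treated and untreated libraries did not overlap in either line or when pooled. EREG fell 1.37-fold (log2 fold change −0.46 with a standard error of 0.079, adjusted p = 2.72e-04), by 1.43-fold in KO1 (adjusted p = 3.08e-06) and 1.32-fold in KO2 (adjusted p = 1.74e-05).

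AREG was at 15.1, 16.0 and 16.05 CPM in KO1+MK and at 8.71, 7.57 and 7.14 CPM in KO2+MK. In each line the treated libraries were below the untreated ones, but KO1+MK stayed above untreated KO2. AREG fell 1.67-fold in KO1 (log2 fold change −0.74 with a standard error of 0.051, adjusted p = 2.08e-07) and 1.40-fold in KO2 (−0.49 with a standard error of 0.086, adjusted p = 2.82e-04). The KO2 result did not pass without KO2 replicate 1 or 3 or KO2+MK replicate 2 or 3, with adjusted p of 0.00264, 0.00164, 0.00304 and 0.00145. The pooled log2 fold change of −0.67 had an adjusted p of 0.089, and with the line as a covariate it was −0.63 with an adjusted p of 9.99e-09.

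HBEGF was at 146.9, 150.0 and 147.8 CPM in KO1+MK and at 137.2, 144.7 and 153.3 CPM in KO2+MK. Both treated groups were above the untreated KO libraries (89.7 to 125.0 CPM), and both overlapped with WT, against which they were not tested. HBEGF rose 1.39-fold (log2 fold change 0.47 with a standard error of 0.077, adjusted p = 1.71e-04). TGFA was at 48.4, 50.8 and 49.3 CPM in KO1+MK and at 39.0, 39.2 and 38.3 CPM in KO2+MK, above the untreated libraries of its own line and below WT. Its log2 fold change was 0.25 in KO1 (adjusted p = 2.32e-04) and 0.21 in KO2 (95% interval 0.12 to 0.31, adjusted p = 0.00122). Pooled it was 0.23 (0.03 to 0.43, adjusted p = 0.0515), and 0.23 with the line as a covariate (adjusted p = 7.33e-07). The KO1 rise of TGFA was lost without KO1 replicate 1, 2 or 3 or KO1+MK replicate 2 or 3, with adjusted p of 0.00206, 0.00104, 0.00117, 0.00274 and 0.00147.

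Within KO1, 2 ligands rose and 3 fell after MK2206 and AREG was called, where 10.9% of all genes rose, 8.26% fell and 5.01% were called. Within KO2, 1 rose and 3 fell and HBEGF was called, where 13.1% of all genes rose, 8.78% fell and 7.06% were called. A test of the difference between the lines used the interaction of line and treatment. HBEGF rose 1.24-fold in KO1 and 1.58-fold in KO2, a difference of −0.35 on the log2 scale (standard error 0.057, 95% interval −0.47 to −0.22, adjusted p = 0.0155). At an adjusted p of 0.05, 38 genes or 0.244% of all genes passed. The AREG difference was −0.25 (−0.45 to −0.05, adjusted p = 0.504), and those of EREG, TGFA and NRG1 were −0.12, 0.03 and 0.03 with intervals that included 0. No ligand passed 0.001 in edgeR, although HBEGF and AREG were among the 1251 genes with an unadjusted p under 0.05 and DESeq2 gave HBEGF an adjusted p of 4.94e-05.

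Ordered by their mean level, the groups ran differently for each ligand. For AREG the order was KO1, WT, KO1+MK, KO2, myrAKT and KO2+MK, and of these neighbours only myrAKT and KO2+MK overlapped. For TGFA it was WT, myrAKT, KO1+MK, KO1, KO2+MK and KO2, with overlap between myrAKT and KO1+MK alone. For HBEGF it was WT, KO1+MK, KO2+MK, KO1, myrAKT and KO2, where the first 3 groups overlapped and so did myrAKT and KO2. EREG and NRG1 were both highest in KO1 and lowest in KO1+MK and KO2+MK. Their middle groups WT, KO2 and myrAKT overlapped, except KO2 with myrAKT for NRG1.

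BTC and EPGN were too low to be tested with the other ligands. BTC had 5 to 11 counts per library in WT, 2 to 8 in KO1, 3 to 12 in KO2, 3 to 5 in KO1+MK and 4 to 8 in KO2+MK. In myrAKT it had 24, 22 and 21 counts, above every other library. The 67 counts of the 3 myrAKT libraries have an exact 95% Poisson interval of 51.9 to 85.1, against 23 counts (14.6 to 34.5) in WT, and the intervals cover counting error only. Without the filter, BTC gave a log2 fold change of 1.55 in myrAKT (standard error 0.392, adjusted p = 5.65e-04). EPGN had 16, 30 and 18 counts in KO2, 6 to 19 in every other library, and a log2 fold change of 0.93 in KO2 without the filter (adjusted p = 0.0259), which did not pass.

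The genes around the chromosome 4 ligands were looked at because AREG and EREG lie 56.39 kb apart. Within 500 kb of the 4 ligand genes the count table holds 30 genes, and 7 were tested, AREG and EREG among them. The chemokine genes CXCL1, CXCL2 and CXCL3 fell in KO2 with log2 fold changes of −2.57, −1.81 and −2.01, and in myrAKT with −2.69, −1.46 and −1.27. CXCL1 fell by 0.44 on the log2 scale in KO1 (adjusted p = 5.46e-04), and CXCL2 and CXCL3 were at −0.21 and 0.03 there (adjusted p = 0.111 and 0.827). In KO1 against KO2 they were higher by 2.13, 1.59 and 2.05. AREG shared with them lower values in KO2 and myrAKT. PARM1, 488.0 kb past the AREG start, rose in myrAKT (log2 fold change 2.66, adjusted p = 5.79e-08) and was lower in KO1 than in KO2 (−1.14, adjusted p = 6.60e-04). MTHFD2L and EREG, which lie between the chemokines and AREG, had myrAKT values of 0.31 (adjusted p = 0.0161) and −0.00042.

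**Figure D4:**
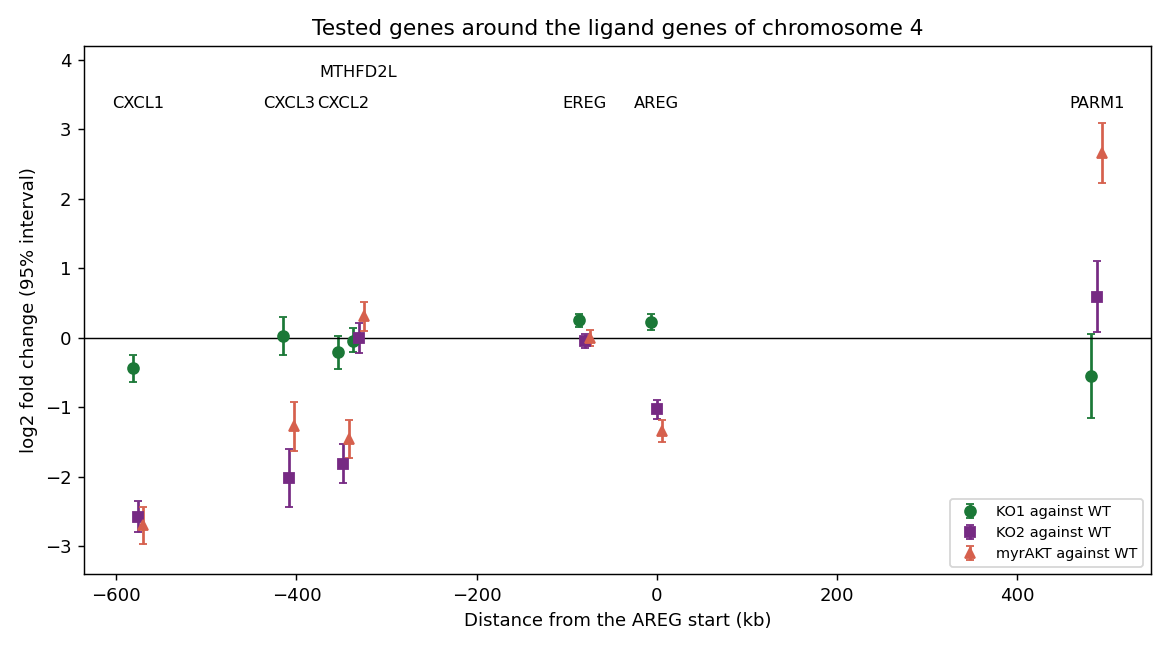
The log2 fold change against WT (y axis, with 95% intervals) of the 7 tested genes around the chromosome 4 ligands is plotted by distance from the AREG start in kb (x axis), with the 3 comparisons set slightly apart. AREG, CXCL1, CXCL2 and CXCL3 are lower in KO2 and myrAKT, and EREG stays near 0 in both.

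By Pearson correlation of log2 CPM over the 18 libraries, among the 12112 other genes that averaged 100 or more counts, the genes most like each ligand were HIF1A (0.976) and DDX10 (0.974) for AREG, and EVA1C (0.938) and CDC42EP1 (0.930) for EREG. For HBEGF they were IRAK2 (0.974) and GARRE1 (0.971), for TGFA ADGRL2 (0.980) and SEC24D (0.966), and for NRG1 TRMT5 (0.986) and SH3RF2 (0.976). The libraries share groups and scaling, so these values describe likeness and were not tested. HIF1A, which encodes the oxygen-regulated subunit of a transcription factor, ran from 654.7 CPM in KO2+MK to 842.1 CPM in KO1, a narrower range than AREG. None of the other ligands was among these genes. Between the tested ligands themselves, the correlations ran from −0.47 for HBEGF with NRG1 to 0.90 for EREG with NRG1.

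Of the 3 receptors tested, ERBB3 fell in KO cells and EGFR and ERBB2 did not pass in the pooled comparison. EGFR, the receptor of AREG, TGFA and HBEGF, was at 744.7 ± 5.91 CPM (SD, n = 3) in WT and fell 1.43-fold in myrAKT (log2 fold change −0.51, adjusted p = 1.64e-06), with KO values of −0.07 (95% interval −0.14 to 0.01). ERBB2, which has no ligand of its own, had a pooled KO value of −0.15 (adjusted p = 0.00529), and fell in KO1 (−0.19, adjusted p = 1.50e-04) but did not pass in KO2 (−0.09, adjusted p = 0.0248). ERBB3, the receptor of NRG1, was at 9.90 CPM in WT, fell in KO cells (log2 fold change −1.45, adjusted p = 1.80e-06) and in myrAKT (−0.83, adjusted p = 1.68e-05), and rose with MK2206 (0.69, adjusted p = 1.43e-04). ERBB4 was not tested, with 6 to 35 counts per library. Of the 2 other ErbB ligands tested, EGF fell in KO1 (log2 fold change −0.72, adjusted p = 1.79e-04) but did not pass in KO2 (−0.19, adjusted p = 0.221). EGF rose in myrAKT (0.97, adjusted p = 3.61e-06), and NRG2 rose there too (0.50, adjusted p = 8.63e-04). NRG3 and NRG4 had at most 15 counts in a library.

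Of the 10 genes tested for shedding and trafficking of ligand precursors, 6 fell and 1 rose in KO cells (median log2 fold change −0.393). Of all genes, 16.6% fell and 15.5% rose in KO cells, with a median of −0.00291. RHBDF2, which carries ADAM17 to the surface, fell by 0.72 on the log2 scale and the protease ADAM19 by 0.68. The sheddases ADAM17 and ADAM10, named after their values were seen, fell by 0.41 and 0.37 in KO cells and by 0.41 and 0.29 in myrAKT. FRMD8 of the same list went the other way, at 29.35 CPM in WT, 42.14 CPM in KO1 and 36.98 CPM in KO2. In myrAKT 3 genes of the list fell and 1 rose, and after MK2206 1 rose and 1 fell. Of all genes, 17.3% fell, 12.7% rose and 13.8% were called in myrAKT. After MK2206, 12.8% of all genes rose, 8.75% fell and 6.53% were called. Of the 6 adaptors, SOS2 alone fell in the pooled KO comparison (−0.58, adjusted p = 9.15e-07). In KO1, 2 adaptors rose and 2 fell, with SOS1 among the falls (−0.24, adjusted p = 1.56e-05). In KO2, 1 adaptor rose and 1 fell. SOS2 was the adaptor that fell in myrAKT (−0.23, adjusted p = 2.25e-04) as well. With MK2206 3 adaptors rose, and GAB1 (0.81) and SOS2 (0.69) were called. Of the 9 negative regulators tested, 4 fell and 1 rose in KO cells, with CBLB, a ubiquitin ligase for EGFR, at −1.05, and 2 rose with MK2206, with CBLB at 0.81. In myrAKT 2 of them rose and 2 fell, UBASH3B (−0.76) and CBL (−0.74) being called.

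Of 10 genes that are often read as a sign of MAPK activity, 4 fell and 1 rose in KO cells, 5 rose and 2 fell in myrAKT, and 5 rose and 1 fell with MK2206. Of all genes, 16.6% fell and 15.5% rose in KO cells, and 12.7% rose and 17.3% fell in myrAKT. With MK2206, 12.8% of all genes rose and 8.75% fell. PHLDA1 (−0.86) and DUSP4 (−0.74) had the largest falls in KO cells. SPRY4 rose in myrAKT (0.79) and with MK2206 (0.85), EPHA4 rose in myrAKT (0.66), and DUSP6 rose with MK2206 (0.69). These lists were read against the shares of all genes that rose or fell in each comparison, given with the ligands, and no test of a list as a whole was made.

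**Figure D5:**
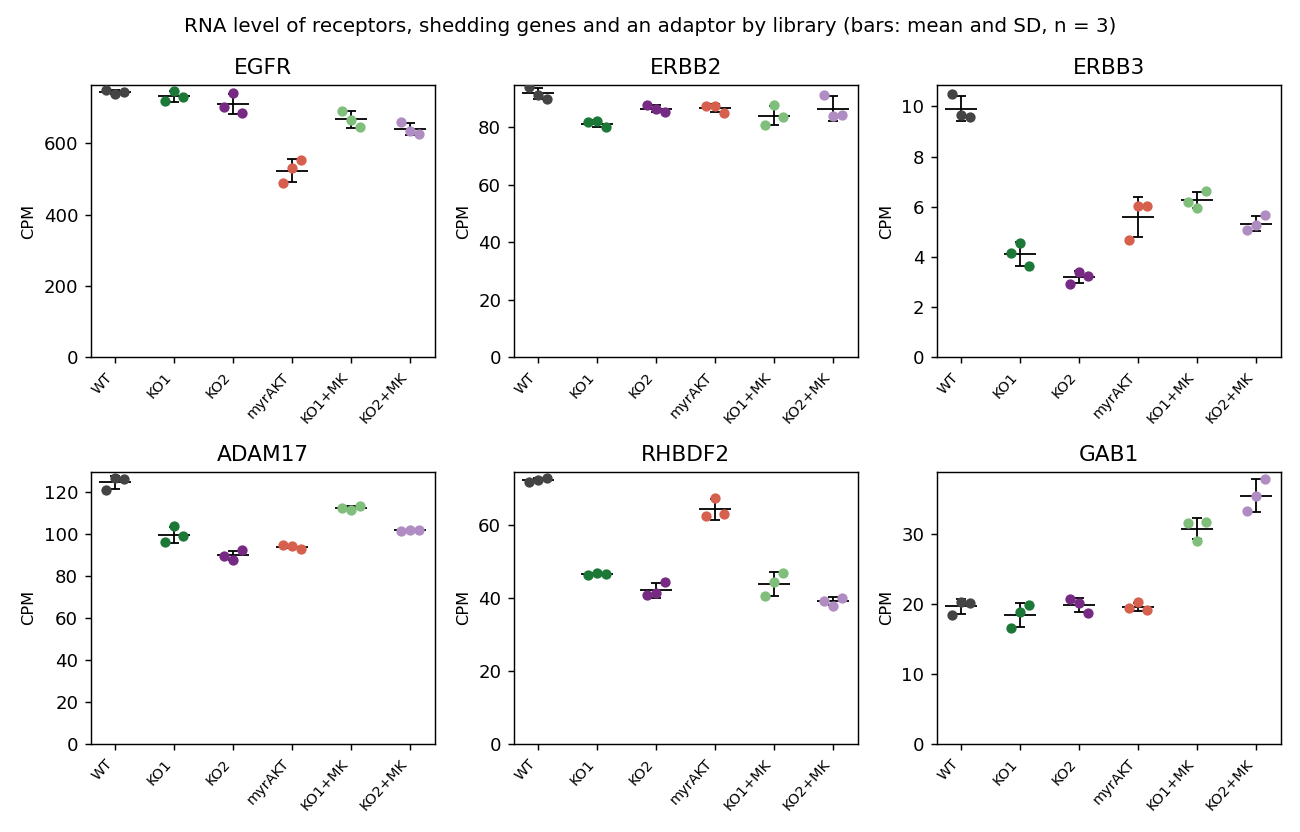
CPM (y axis, from 0) of EGFR, ERBB2, ERBB3, ADAM17, RHBDF2 and GAB1 in the 3 libraries of each group (x axis), with points for libraries and bars for the mean and SD. ERBB3 is highest in WT at 9.90 CPM, EGFR is lowest in myrAKT, and GAB1 is highest in the treated KO groups.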

How the data were processed

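RNA from 18 MDA-MB-231 libraries (3 for each of 6 groups, grouped by the sample labels) was sequenced after depletion of ribosomal RNA. The authors deposited 1 table of counts of reads per Ensembl gene, without normalization. The submitters' processing notes name FastQC, Trim Galore, HISAT2, featureCounts, MultiQC and the hg38 build. Versions, annotation, strand setting and the rule for reads in several genes are not given in the sources used here, so reads of overlapping or antisense genes cannot be told apart. GENCODE release 44 gave symbols to 41445 of 57448 identifiers, positions and exon lengths.

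The members and gene lists were chosen with earlier results of these data known. Genes that reached 1 CPM in 3 or more libraries were tested with edgeR 4.0.16 in R 4.3.3 (TMM, quasi-likelihood test, two-sided, Benjamini-Hochberg adjustment). DESeq2 1.42.0 was an alternative. Each comparison used its own groups. Standard errors and 95% intervals were derived from the quasi-likelihood F values. CPM values used TMM-normalized library sizes, and log2 CPM for likeness used a prior count of 2. Fits were tested on simulated data. Alternatives were other size factors, no filter, all libraries in 1 fit, a replicate block, the line as a covariate, other thresholds and each library left out. Named genes were the members, GPS2, AKT1, the receptors, the 2 largest called changes of each list in each pooled comparison, called neighbours on chromosome 4, and the 2 genes most correlated with each member. NRG2, NRG3, NRG4, ADAM10, ADAM17, FRMD8, SOS1, MTHFD2L and the marker genes fall outside this rule, and all but the marker genes were chosen after their values were seen. Counting precision was set by 210 to 6107 counts per library for the tested ligands. Figures were drawn with matplotlib 3.10.9 in Python 3.11.15.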

Additional observations from a re-analysis of the deposited data

Results flagged for a closer look

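The MK2206 effect on HBEGF differed between the lines by −0.35 on the log2 scale (KO1 minus KO2), by an interaction test with an adjusted p of 0.0155, which passed 0.05 but not the threshold of 0.001 used elsewhere. HBEGF was higher after MK2206 in all 3 libraries of each line, and untreated KO2 had started lower (93.1 CPM against 121.3 CPM in KO1).

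The knockout effect on AREG differed between the lines, with AREG higher in KO1 than in KO2 by 1.25 on the log2 scale (edgeR, adjusted p = 5.74e-11) in 3 of 3 libraries. KO1 was above WT and KO2 below it in every library.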

How the results depend on the processing

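Of 45 ligand fold changes, the alternatives with all libraries kept direction and side of the threshold (adjusted p and 1.5-fold) in 308 cases, with 3 weaker, 5 stronger and 4 reversed, and those with 1 library left out in 329, with 7 weaker, 1 stronger and 8 reversed. In KO against WT, 2 ligands were called lower in the reported analysis, 1 without the filter, 1 with a replicate block, and 1 to 2 with a library left out. In KO1 against WT, none was called lower, 1 with upper-quartile normalization, 1 with library totals, and 0 to 1 with a library left out. In myrAKT, 2 were called lower, 1 with library totals, 1 to 2 with a library left out, and 1 (BTC) was called higher without the filter. With MK2206 in KO cells, none was called lower, but 1 (AREG) was in the fit of all 18 libraries and 1 with the line as a covariate. With MK2206 in KO2 cells, 1 (NRG1) was called lower with upper-quartile normalization. Without a minimum fold change, the calls were 1 higher and 2 lower in KO1, 3 lower in myrAKT, 1 higher and 2 lower for pooled MK2206, 2 higher and 3 lower for MK2206 in KO1, 1 higher and 3 lower for MK2206 in KO2, and 4 higher for KO1 against KO2. Signs turned only for values near 0. EREG in myrAKT was 0.04 with upper quartiles, 0.04 with library totals and 0.01 in the fit of all libraries, and −0.04 to 0.03 with a library left out. NRG1 in KO2 was 0.0017 in the fit of all libraries and −0.05 to 0.02 with a library left out, in pooled KO −0.0018 to 0.06, and in the interaction −0.0011 to 0.05. Replicates of different groups shared only a number (correlations of same-numbered libraries from −0.518 to 0.297), and a replicate block moved HBEGF in pooled KO to an adjusted p of 0.00237 and EREG with pooled MK2206 to 0.00103. The cause of these shifts was not tested. The counts limit what can be said of BTC and EPGN.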
